A study of Mus musculus with 8 samples.

Results

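Alpl, Alppl2 and Enpep, which encode 2 alkaline phosphatases and an aminopeptidase of the cell surface, were followed across 4 groups of mouse samples on Affymetrix Mouse Gene 2.1 arrays. They were taken by symbol, as every probe set listed with that gene alone, and are 3 of 22180 named genes, with 4 of the 23521 probe sets that carry a single gene. Alpl has 2 of these probe sets, and the brighter, 17548317, stands for it unless stated. The set was chosen by its levels on these arrays, as alkaline phosphatases and as surface enzymes with high log2 intensities in the inner cell mass (ICM). ICM was the highest group for Alppl2 and Enpep, which the choice itself fixes, but not for Alpl, whose highest group was ESC. Differences from ICM are therefore given for the 3 genes as descriptions with no test, and tests are given only for Alpl among cultured cells.

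All samples were wild-type C57BL/6J, and each group had 2 arrays. The FGF-ESC lines were derived from day 3.5 embryos and kept in KODMEM with 20% KSR (a serum replacement) and FGF2 on mouse embryonic fibroblast feeders (MEF). EpiSC, the primed epiblast type of stem cell, had the same medium and feeders, and the labels give day 3.5 embryos as their origin too. ESC, the naive type, were kept without feeders in DMEM with 2i (a pair of kinase inhibitors) and LIF. Their sample labels add 15% FCS, which the growth protocol does not mention. ICM is the uncultured inner cell mass of day 3.5 blastocysts, obtained by immunosurgery, a treatment that lyses the outer trophectoderm. RNA of ICM was purified with another column kit than that of the cultured cells, so kit and culture cannot be told apart from the inner cell mass itself. Whether 2 arrays with the same group label had separate cultures or pools of embryos behind them is not stated, so the p-values rest on array spread that may be technical.

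Alkaline phosphatases are enzymes tethered to the outer cell membrane by a GPI anchor that remove phosphate groups from many substrates. Strong alkaline phosphatase staining is a classical mark of pluripotent cells, and Alpl, the tissue-nonspecific enzyme, also breaks down pyrophosphate in bone and dephosphorylates the circulating form of vitamin B6. Alppl2 encodes an embryonic isozyme, and Akp3 and Alpi encode intestinal ones. Enpep encodes aminopeptidase A, a zinc enzyme of the M1 family that trims acidic residues from the start of peptides, angiotensin II among them, and is abundant on the brush borders of kidney and gut.

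Alppl2, Alpi and Akp3 follow one another in the RefSeq gene order, and the 250 bases before their annotated starts are shown because these related genes had unlike levels in ICM. The sequences are RefSeq's, on GRCm38.p6, written in the direction of transcription. Capitals mark each match to TATTTAA and the longest runs shared by all 3, TTCAGTTCACAGG and, after it, GGGTGGGGCCAGG, of 13 bases each.
Alppl2, chr1:87089929-87090178, minus strand: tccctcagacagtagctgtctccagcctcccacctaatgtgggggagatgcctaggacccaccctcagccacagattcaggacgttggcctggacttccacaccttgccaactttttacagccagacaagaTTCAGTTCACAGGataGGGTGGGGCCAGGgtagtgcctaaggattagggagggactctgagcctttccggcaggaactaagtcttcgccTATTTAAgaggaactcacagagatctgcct
Alpi, chr1:87101607-87101856, minus strand: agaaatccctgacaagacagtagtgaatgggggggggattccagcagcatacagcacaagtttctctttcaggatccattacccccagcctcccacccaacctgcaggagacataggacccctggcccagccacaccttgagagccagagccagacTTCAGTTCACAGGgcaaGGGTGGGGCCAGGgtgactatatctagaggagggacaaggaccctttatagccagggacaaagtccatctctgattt
Akp3, chr1:87124704-87124953, plus strand: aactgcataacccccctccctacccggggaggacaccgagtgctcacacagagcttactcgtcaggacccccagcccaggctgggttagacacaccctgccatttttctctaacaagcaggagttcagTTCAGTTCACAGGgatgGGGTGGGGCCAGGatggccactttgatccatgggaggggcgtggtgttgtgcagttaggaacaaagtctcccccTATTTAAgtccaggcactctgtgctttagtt
The next 2 are shown because Enpep had the array pattern of Alppl2 while Alpl did not. Capitals mark TATTTAA in Enpep and GGGCGG in the first of 2 annotated starts of Alpl.
Enpep, chr3:129332750-129332999, minus strand: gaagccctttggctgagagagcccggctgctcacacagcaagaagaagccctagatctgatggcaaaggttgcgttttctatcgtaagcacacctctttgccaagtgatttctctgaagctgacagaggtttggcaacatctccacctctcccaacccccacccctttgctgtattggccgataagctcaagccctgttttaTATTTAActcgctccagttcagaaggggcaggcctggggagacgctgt
Alpl, chr4:137796385-137796634, minus strand: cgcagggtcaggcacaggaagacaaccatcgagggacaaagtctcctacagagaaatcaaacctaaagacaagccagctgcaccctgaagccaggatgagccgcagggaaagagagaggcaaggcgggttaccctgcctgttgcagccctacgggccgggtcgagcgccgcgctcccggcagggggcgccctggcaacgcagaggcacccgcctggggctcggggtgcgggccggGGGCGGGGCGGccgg
The first shared run lies in 9 and the other in 15 of 32851 annotated promoters of this length (0.0274% and 0.0457%), on either strand. In gapped alignments the aligned bases of Alppl2 and Alpi were 80.4% identical, those of Alppl2 and Akp3 66.2% and those of Alpi and Akp3 66.8%, against 55.2 to 60.5% for pairs that include Enpep or Alpl. TATTTAA, a motif looked for only after the sequences were read, begins 30 bases before the start of Alppl2, 31 before that of Akp3 and 48 before that of Enpep, and is in 4.18% of promoters. The TATA box TATAAA, in 12.4% of promoters, was found on the opposite strand of Alpi, Enpep (where it overlaps TATTTAA) and the second Alpl start. The GC box GGGCGG, in 32.7%, was found only before the first Alpl start, where 2 matches share a base. So were 2 matches to GCCNNNGGC, a form of the TFAP2 motif, in 13.7%. Both strands were searched for all motifs. In these windows there was no match to the GATA motif AGATAA, in 9.99% of promoters. Nor was there one to the TEAD motif GGAATG (12.6%), the nuclear receptor motif AAGGTCA (4.08%) or the E-box CACGTG (6.02%). The first Alpl window is 68.4% G and C, against 54.0% for Alppl2, 52.4% for Enpep and a median of 52.4% over all promoters. A match describes letters only.

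Levels are the authors' deposited log2 intensities. Tests covered the 13597 genes, all 3 members included, with 2 or more arrays over 4.24, the median of all values; Alppl2 and Enpep met it only through their ICM arrays. Same-group arrays had a Pearson r of 0.967 (FGF-ESC) to 0.994 (ESC) across these genes, which are not independent replicates, and 395 genes differed by at least 1 between the FGF-ESC arrays, against 0 to 80 in the other groups. The mean level of 23 fibroblast markers was 8.56 and 7.30 for FGF-ESC, 5.03 and 5.38 for EpiSC and 4.24 to 4.40 for ESC and ICM arrays. The 20 trophectoderm markers had a mean of 5.95 and 5.82 in ICM and of 4.69 to 5.03 on cultured arrays, and the 17 primitive endoderm markers had 5.80 and 5.89 against 4.63 to 5.37. The labels of ESC and EpiSC were borne out by naive markers, at 7.90 and 7.88 in ESC against 5.44 and 5.74 in EpiSC. Primed markers, at 6.90 and 7.14 in EpiSC against 4.77 to 5.38 elsewhere, also bore them out. Naive markers were at 7.13 and 7.52 in FGF-ESC and at 7.58 and 7.61 in ICM.

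**Figure D1:**
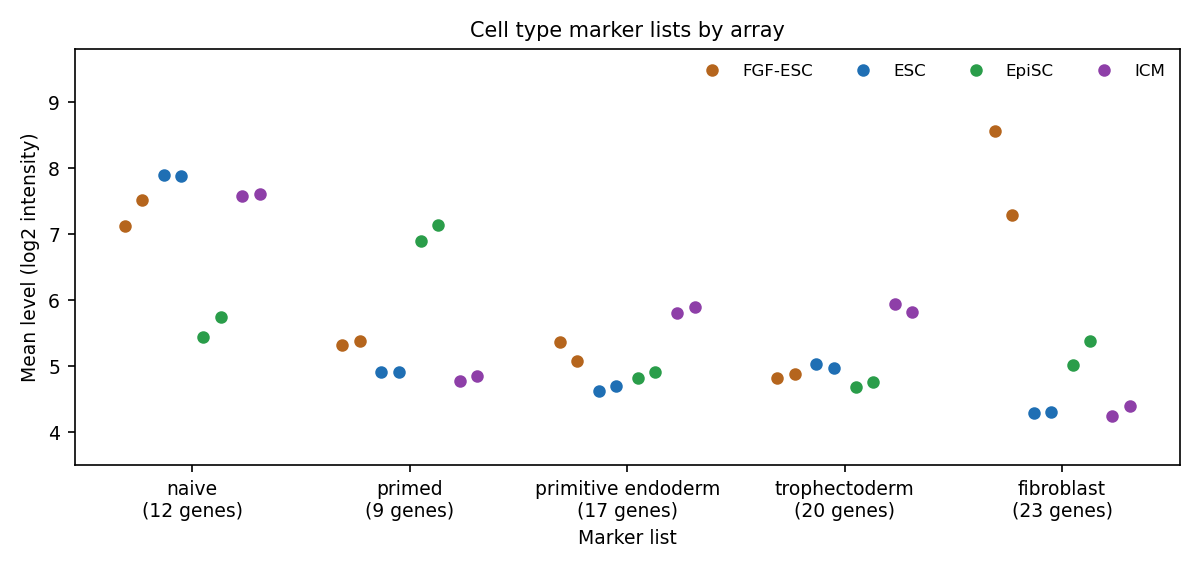
Mean level (log2 intensity, vertical axis) of the genes of 5 cell type marker lists (horizontal axis), with a point for each array coloured by group. Fibroblast markers are highest on the FGF-ESC arrays (8.56 and 7.30), and primitive endoderm and trophectoderm markers are highest on the ICM arrays.

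Alppl2 was bright in ICM and dim in every kind of cultured cell. Its probe set (17225196) read 8.25 and 8.15 in ICM, against 3.11 and 3.17 in FGF-ESC, 2.92 and 3.09 for ESC and 3.16 and 3.25 in EpiSC. Both ICM arrays were above all 6 cultured arrays, with a gap of 4.90 between the lower ICM array and the highest cultured one. The ICM mean of 8.20 ± 0.07 (SD, n = 2) exceeded the mean of FGF-ESC by 5.05, that of ESC by 5.19 and that of EpiSC by 4.99, which is 33.2-, 36.5- and 31.8-fold. The cultured means lay 1.04 to 1.23 below the median of all values, where an array records mostly background, so these folds depend on that floor; the ICM mean lay 3.95 above it. In these bulk samples fewer cells with a transcript and less transcript per cell cannot be told apart.

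All 6 cultured arrays of Alppl2 lay between 2.92 and 3.25, below the median of all values. Differences among the cultured groups, from -0.20 to 0.13, therefore compare background with background and say nothing of transcript levels.

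Enpep had nearly the same pattern. Its probe set (17410251) read 8.23 and 8.25 in ICM, against 3.02 and 3.0 in FGF-ESC, 3.18 and 3.12 for ESC and 3.10 and 3.07 in EpiSC. The ICM arrays differed from each other by 0.02 and stood 5.05 above the highest cultured array. The ICM mean of 8.24 ± 0.01 (SD, n = 2) exceeded that of FGF-ESC by 5.22, that of ESC by 5.09 and that of EpiSC by 5.15, or 37.4-, 34.0- and 35.6-fold, again over means that were 1.09 to 1.23 below the median of all values. All 6 cultured arrays lay between 3.0 and 3.18, so that differences among the cultured groups, from -0.14 to 0.07, again compare background with background.

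**Figure D2:**
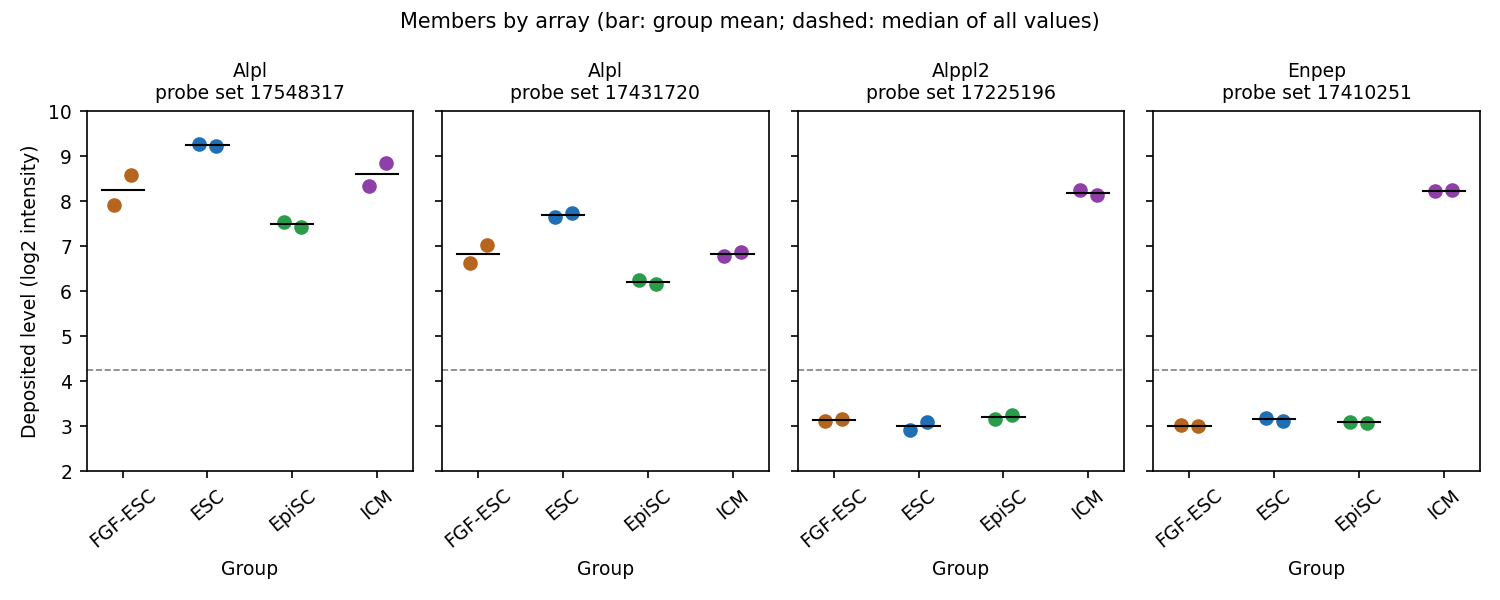
Level of the 4 member probe sets (log2 intensity, vertical axis) on each array, by group (horizontal axis); bars are group means of 2 arrays and the dashed line is the median of all values, 4.24. Alppl2 and Enpep exceed 8 in ICM and stay under 3.3 in all cultured groups, while both Alpl probe sets are highest in ESC and lowest in EpiSC.

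Few genes had a gap of this width. Both ICM arrays were above every cultured array by at least 4 for 20 of 13597 tested genes, or 0.147%, with Enpep and Alppl2 among them; since the pair was chosen for being high in ICM, this places the genes and tests nothing. Where cultured values lie near background, as for this pair, the width of the gap depends on the floor of the probe set. With no minimum on the gap, 19.2% of tested genes had both ICM arrays above all cultured ones. Alpl was not among them: its lower ICM array was 0.93 below its highest cultured array.

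**Figure D3:**
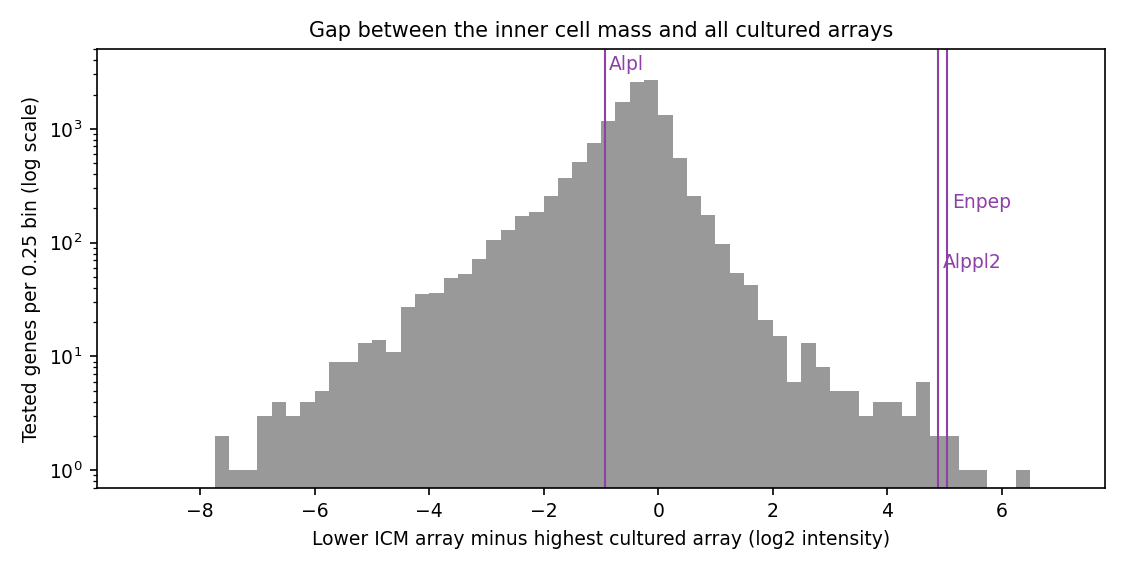
Distribution over 13597 tested genes of the lower ICM array minus the highest cultured array (log2 intensity, horizontal axis; genes per bin on a log scale, vertical axis). Alppl2 (4.90) and Enpep (5.05) lie in the far right tail, and Alpl (-0.93) lies left of 0.

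Alpl was bright in all 4 groups and among cultured cells was highest in the naive and lowest in the primed type. It read 9.29 and 9.24 for ESC, 8.35 and 8.85 in ICM, 7.92 and 8.58 in FGF-ESC and 7.55 and 7.44 in EpiSC. The order of means was ESC, ICM, FGF-ESC, EpiSC, at 9.26 ± 0.03, 8.60 ± 0.35, 8.25 ± 0.47 and 7.49 ± 0.08 (SD, n = 2). Arrays of ICM and FGF-ESC overlapped, whereas those of ESC lay above and those of EpiSC below all others.

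Among cultured cells Alpl was higher in ESC than in EpiSC by 1.77 ± 0.23 (SE, limma adjusted p = 0.00124), or 3.41-fold, a call kept under all 15 alternatives (adjusted p from 2.23e-05 to 0.018). In this comparison 7.36% of all tested genes passed in either direction. Medium and feeders differed between ESC and both EpiSC and FGF-ESC, so they cannot be told apart from cell type in these comparisons. The FGF-ESC level of Alpl lay between those of ESC and EpiSC. It was lower than in ESC by 2.01-fold, a log2 difference of -1.01 ± 0.23 (adjusted p = 0.0246), barely past the minimum of 1; 6.21% of tested genes passed, 0.934% as lower in FGF-ESC and 5.27% as higher. The call was lost without FGF-ESC replicate 1 (-0.68, adjusted p = 0.0804), without ESC replicate 1 (-0.99, 0.153) or without ESC replicate 2 (-1.04, 0.129). It was also lost with arrays centred on their medians (-0.94), with the probe sets of a gene averaged (-0.94) and in a fit of these groups alone (adjusted p = 0.07). Over its 15 alternatives the adjusted p ran from 0.00201 to 0.153.

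Against EpiSC, Alpl differed in FGF-ESC by 0.76 ± 0.23 (adjusted p = 0.0542) and did not pass; 7.28% of tested genes passed, 5.26% as higher in FGF-ESC and 2.02% as lower. Without FGF-ESC replicate 1 the difference was 1.09 with an adjusted p of 0.00782, which passed. That array had the lower Alpl level of the pair, 7.92 against 8.58, and the higher fibroblast marker mean, 8.56 against 7.30; the part of feeder RNA in these values was not tested. Both FGF-ESC arrays nevertheless exceeded both EpiSC arrays.

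The other Alpl probe set (17431720) gave the same order for the extremes. It read 7.65 and 7.74 for ESC, 6.79 and 6.88 in ICM, 6.62 and 7.04 in FGF-ESC and 6.25 and 6.17 in EpiSC. On this probe set ESC exceeded EpiSC by 1.48, FGF-ESC minus ESC was -0.86, and the ICM arrays lay between the FGF-ESC arrays. Relative to ICM, the first probe set differed by 0.35 over FGF-ESC, by -0.66 over ESC and by 1.11 over EpiSC, and the other by 0.004, -0.86 and 0.62.

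Genes with the most similar pattern over the 8 arrays were sought among 3433 others whose group means spanned at least 1, as a description of profiles that share the same arrays. For Alpl they were Abcc5, a membrane transporter (r = 0.978), the noncoding RNA Platr20 (0.972), Grtp1 (0.967), Jam2, a junctional adhesion molecule (0.966), and Gm7762 (0.964). Jam2 read 8.53 and 8.40 for ESC, 7.23 and 7.74 in ICM, 6.64 and 7.53 in FGF-ESC and 4.83 and 4.61 in EpiSC, the order of Alpl over a wider range. For Alppl2 they were Fbp2, a fructose bisphosphatase of gluconeogenesis (0.9993), C130073F10Rik (0.9990), Pramel5 (0.9984), LOC100039010 (0.9983) and Enpep itself (0.9982). For Enpep they were Pramel5 (0.9995), Sycn, a secretory granule protein (0.9992), BC053393 (0.9991), Tat, a tyrosine aminotransferase of the liver (0.9991), and LOC100039010 (0.9990). Fbp2 read 9.43 and 9.49 in ICM and 3.76 to 4.10 on cultured arrays. The profiles most like Alppl2 and Enpep consist of a step between ICM and all cultured arrays.

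The sister genes of Alppl2 did not share its level in ICM. Alpi (probe set 17225210) read 3.74 and 3.93 in ICM and 3.63 to 3.94 on cultured arrays. Akp3 (17215166) read 3.52 and 3.68 in ICM and 3.52 to 4.11 on cultured arrays, the highest value being ESC replicate 2. Both stayed below the median of all values on every array and were not tested, and for both the ICM values lay within the cultured range. Members of this family are alike in sequence and probe sequences were not used here, so the copy a probe set reads is uncertain.

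On the other side of Alppl2 lie Dis3l2, an exoribonuclease, Nppc, a natriuretic peptide, and Cops7b, a COP9 signalosome subunit. Dis3l2 was at 5.44 and 5.62 in ICM and 5.86 to 6.33 elsewhere, and none of these 3 passed in any comparison. Since 6.21 to 15.3% of all tested genes passed per comparison, none among 3 genes says little about these neighbours. Next to Enpep, Elovl6, a fatty acid elongase, read 8.98 and 9.04 in ICM and 7.36 to 7.77 on cultured arrays; it rose in ICM by 1.48 ± 0.15 over FGF-ESC (adjusted p = 0.000155), 1.36 ± 0.15 over ESC (0.000294) and 1.34 ± 0.15 over EpiSC (0.000201). Rap1gap, next to Alpl, read 3.76 to 4.08 on all arrays, below the median of all values. Beyond it, the deubiquitinase Usp48 read 7.97 and 8.04 for ESC and 6.80 and 6.79 in EpiSC. It was higher in ESC than in EpiSC by 1.21 ± 0.16 (limma adjusted p = 0.00123), but its highest values were those of ICM, 8.11 and 8.45. On the far side of Alpl, Ece1, which matures endothelin, read 4.52 and 5.18 in ICM and 5.77 to 7.67 on cultured arrays.

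**Figure D4:**
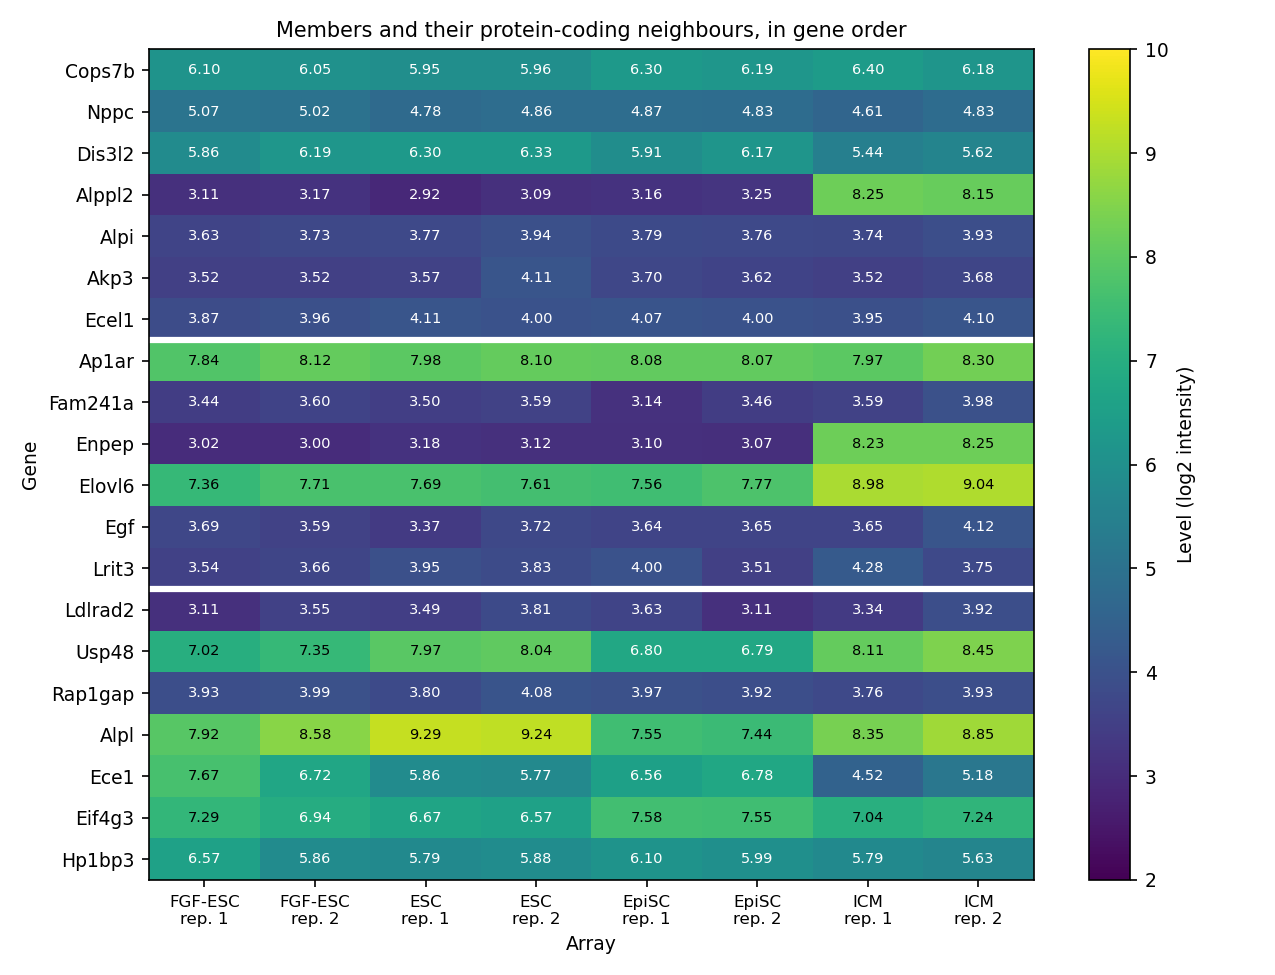
Level (log2 intensity, printed and coloured) of the members and up to 3 protein-coding neighbours on each side in RefSeq gene order (rows, in blocks for Alppl2, Enpep and Alpl) on the 8 arrays (columns). Within a row, Alppl2 and Enpep are bright in the ICM columns and dim in the others, and Alpi and Akp3 stay dim throughout; colours are to be compared along a row, not between genes.

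Of 11 listed genes of the M1 aminopeptidase family 10 had a probe set, and 7 besides Enpep were tested. In ICM, 1 was higher and 0 lower than in ESC (5.57% and 5.82% of all tested genes were), 1 higher and 1 lower than in EpiSC (6.80% and 8.48%), and 0 higher and 1 lower than in FGF-ESC (5.22% and 9.57%), with limma; at an unadjusted p below 0.05 in either direction there were 3, 3 and 4, and all comparisons with ICM share its 2 arrays. The median differences were 0.02, -0.12 and -0.04, against -0.02, -0.01 and 0.02 over all tested genes. The riser was Anpep, aminopeptidase N, which trims neutral residues. It read 6.64 and 6.74 in ICM, 5.20 and 5.37 for ESC, 5.06 and 5.39 in EpiSC and 7.22 and 6.12 in FGF-ESC. It was higher in ICM by 1.40 ± 0.31 over ESC (adjusted p = 0.00916), a call lost without ESC replicate 1 or ICM replicate 2 (up to 0.0706), and by 1.47 ± 0.31 over EpiSC (0.00606), lost without EpiSC replicate 1 (0.0515).

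Erap1, which trims peptides for MHC class I, moved the other way. It read 3.85 and 3.51 in ICM, 3.86 and 4.01 for ESC, 5.90 and 6.42 in EpiSC and 6.09 and 4.95 in FGF-ESC, so that ICM and ESC were dim. It was lower in ICM than in EpiSC by a difference of -2.48 ± 0.34 (adjusted p = 0.000669) and than in FGF-ESC by -1.84 ± 0.34 (0.00363). Npepps, Rnpep, Rnpepl1, Lta4h and Aopep passed in no comparison. Lvrn and Trhde stayed below the median of all values on all arrays. Between FGF-ESC and ESC, Anpep (1.38 ± 0.31, limma adjusted p = 0.0217) and Erap1 (1.58 ± 0.34, 0.0193) rose, where 5.27% of all tested genes were higher. Both calls were lost in a fit of these groups alone and without ESC replicate 1 or ESC replicate 2. That of Anpep was also lost without FGF-ESC replicate 1, the array with the highest fibroblast marker mean.

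Of 15 listed genes of the renin-angiotensin system 13 had a probe set, and 6 of them exceeded 4.24, the median over all arrays, on each ICM array. Of 8 tested genes, 0 were higher and 1 lower in ICM than in ESC with limma (5.57% and 5.82% of all tested genes were), 2 and 1 than in EpiSC (6.80% and 8.48%), and 2 and 2 than in FGF-ESC (5.22% and 9.57%). At an unadjusted p below 0.05 in either direction there were 5, 6 and 5 of the 8. The precursor Agt, the converting enzyme Ace and the receptors Agtr1a, Agtr1b and Mas1 stayed below the median of all values on every array, ICM included. Agtr2, the type 2 angiotensin receptor, read 8.38 and 7.48 in FGF-ESC and 3.03 to 3.53 on all other arrays. It rose in FGF-ESC by 4.78 ± 0.27 over ESC (limma adjusted p = 4.61e-05) and 4.53 ± 0.27 over EpiSC (4.85e-05). The ESC and EpiSC values lay below the median of all values, so the size of these rises depends on the floor. Fibroblast markers were also highest on the FGF-ESC arrays, and the part of feeder RNA was not tested.

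Mme, neprilysin, a surface peptidase that cleaves angiotensins and many other peptides, had its lowest level in ICM. It read 4.11 and 4.14 in ICM, 8.44 and 8.58 for ESC, 6.51 and 7.09 in FGF-ESC and 5.67 and 6.05 in EpiSC, with no overlap between groups. It was lower in ICM than in ESC by a difference of -4.39 ± 0.20 (limma adjusted p = 3.67e-06), than in FGF-ESC by -2.68 ± 0.20 and than in EpiSC by -1.74 ± 0.20. Both ICM values lay below the median of all values, so the size of these differences depends on the floor. Among cultured cells Mme had the order of Alpl, with an FGF-ESC minus ESC difference of -1.71 ± 0.20 (adjusted p = 0.0017). It was higher in ESC than in EpiSC by 2.65 ± 0.20 (8.59e-05). Prep, prolyl endopeptidase, read 8.96 and 9.14 in ICM and was higher there by 1.39 ± 0.14 over FGF-ESC and 1.3 ± 0.14 over EpiSC. Atp6ap2, the prorenin receptor, was higher by 1.47 ± 0.17 over EpiSC and 1.03 ± 0.17 over FGF-ESC, the latter under the minimum without FGF-ESC replicate 1 or ICM replicate 1 and after both rescalings of the arrays. Agtrap, a partner of the type 1 receptor, was higher in ESC than in EpiSC by 1.21 ± 0.12. Prcp, Nln and Thop1 passed in no comparison.

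Of 23 other surface peptidases listed 21 had a probe set and 12 were tested, Mme among them. Without Mme, 3 of 11 were higher and 0 lower in ICM than in ESC with limma (5.57% and 5.82% of all tested genes were), 4 and 2 than in EpiSC (6.80% and 8.48%), and 2 and 3 than in FGF-ESC (5.22% and 9.57%). At an unadjusted p below 0.05 in either direction there were 7, 10 and 10 of the 11. Mme was lower in all 3 comparisons and brings the counts of passing genes to 3 and 1, 4 and 3, and 2 and 4. Median differences without it were 0.08, 0.42 and 0.24, and with it 0.08, 0.15 and -0.17. The meprin subunit Mep1b read 5.90 and 6.09 in ICM and 3.37 to 4.12 on cultured arrays, higher by 1.94 ± 0.16 over ESC (adjusted p = 7.18e-05). Naalad2, a dipeptidase, read 6.12 and 6.03 in ICM and 4.05 to 4.38 elsewhere, higher by 1.74 ± 0.12 over ESC (2.69e-05). Dpp4, dipeptidyl peptidase 4, read 4.96 and 4.80 in ICM, 4.61 and 4.67 in FGF-ESC and 3.21 to 3.60 in ESC and EpiSC. With Mme counted, the number lower in ICM than in FGF-ESC was 2 without FGF-ESC replicate 1. In FGF-ESC 4 rose and Mme fell relative to ESC with limma, where 5.27% of all tested genes were higher and 0.934% lower. The calls of the risers other than Dpp4 were lost without FGF-ESC replicate 1, without either ESC array and in a fit of these groups alone.

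**Figure D5:**
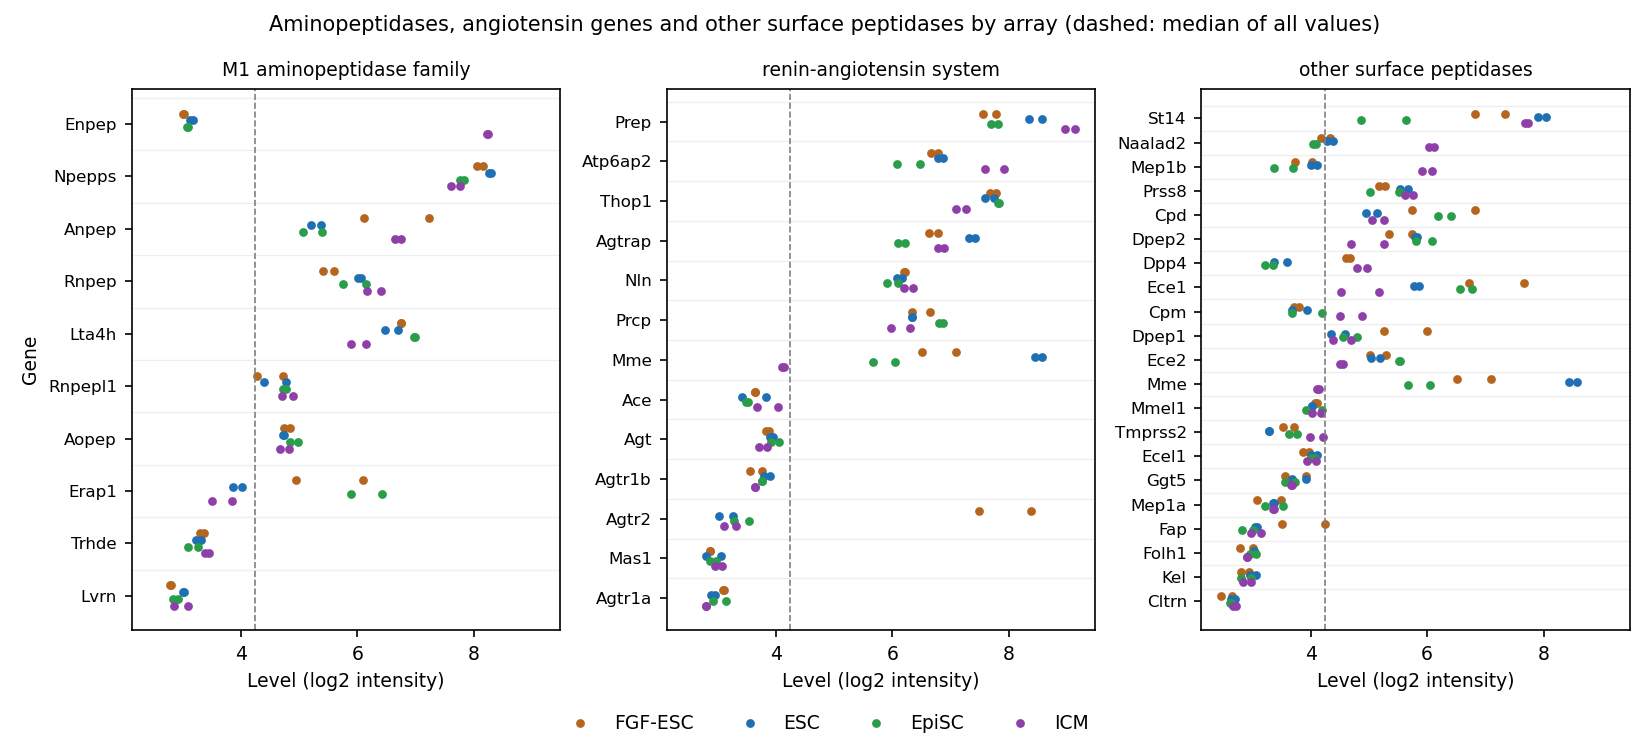
Level (log2 intensity, horizontal axis) on each of the 8 arrays for genes (vertical axis) of the M1 aminopeptidase family, the renin-angiotensin system and other surface peptidases; points are arrays coloured by group and the dashed line is the median of all values. In the first panel Enpep has ICM arrays above 8 and all cultured arrays under 3.2, and Mme, shown in both other panels, has its ICM arrays lowest.

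Of 14 listed genes of phosphate and pyrophosphate handling 11 had a probe set and 10 were tested; in each comparison with ICM 2 were higher and 1 lower, where 5.22 to 6.80% of all tested genes were higher and 5.82 to 9.57% lower. Between ESC and EpiSC 0 passed with limma (3 at an unadjusted p below 0.05), where 7.36% of all tested genes passed. Slc34a2, a sodium phosphate cotransporter of epithelia, read 6.45 and 7.07 in ICM and 3.36 to 3.58 on cultured arrays, higher by 3.18 ± 0.19 over ESC (adjusted p = 1.6e-05). Xpr1, the phosphate exporter, read 7.36 and 7.21 in ICM and 5.28 to 6.12 elsewhere, higher by 1.87 ± 0.13 over ESC (3.69e-05). Slc20a2, another phosphate importer, read 5.50 on both ICM arrays and 6.49 to 7.35 elsewhere, lower in ICM by a difference of -1.07 ± 0.15 from ESC; its call against FGF-ESC was lost without FGF-ESC replicate 1. Ank, which exports the pyrophosphate that Alpl degrades, read 7.73 and 6.39 in FGF-ESC and 5.25 to 5.73 in ESC and EpiSC. It rose in FGF-ESC over ESC by 1.72 ± 0.37 (limma adjusted p = 0.019, lost without ESC replicate 1 or 2) and over EpiSC by 1.43 ± 0.37 (0.0282, lost without FGF-ESC replicate 1 and without either array of ESC or EpiSC). Both calls were also lost in a fit of each pair of groups alone.

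Of 18 listed surface nucleotide enzymes and transporters 14 had a probe set and 10 were tested, with 0 higher in ICM (limma) and 1, 3 and 5 lower than in ESC, EpiSC and FGF-ESC, where 5.82%, 8.48% and 9.57% of all tested genes were lower; the 1 against ESC is near that share. Medians were -0.50, -0.79 and -0.97. At an unadjusted p below 0.05 in either direction they were 6, 7 and 8. Enpp3, an ectoenzyme that cleaves extracellular nucleotides, read 6.33 and 6.04 in ICM, 9.42 and 9.32 in EpiSC, 7.48 and 7.29 in FGF-ESC and 6.29 and 6.31 in ESC, lower in ICM than in EpiSC by a difference of -3.18 ± 0.14 (adjusted p = 1.73e-06). Adk, adenosine kinase, read 5.99 and 5.48 in ICM and 6.55 to 8.41 elsewhere. Slc29a1, an adenosine transporter, was lower in ICM than in ESC by -1.73 ± 0.14, and by -0.64 on its other probe set. Enpp1 and Enpp2 had no probe set with 1 gene. Of the acid phosphatases 5 were tested, with 1 higher and 1 lower in ICM than in ESC (5.57% and 5.82% of all tested genes were). Acp5, the tartrate-resistant enzyme, read 5.70 and 6.07 in ICM and was higher there by 1.38 ± 0.19 than in ESC (limma adjusted p = 0.000829). Acp6, a lysophosphatidic acid phosphatase, was lower in ICM than in ESC by a difference of -1.35 ± 0.20 (0.00127). Of 3 tested genes of vitamin B6 metabolism 0 passed in any comparison with limma. Of all tested genes 6.21 to 15.3% passed per comparison, so a count of 0 among 3 genes says little about this list. At an unadjusted p below 0.05 there were 2 in ICM against FGF-ESC, 1 against ESC and 2 against EpiSC. Of these genes Pdxk, pyridoxal kinase, read 6.31 and 6.24 in ICM and 5.38 to 5.89 elsewhere.

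The GPI anchor of both phosphatases is built and attached by a machinery of which 29 genes were listed. All 26 with a probe set were tested, and in each comparison with ICM 1 was higher, Dpm1, which makes the mannose donor, and 0 were lower with limma, where 5.22 to 6.80% of all tested genes were higher and 5.82 to 9.57% lower. At an unadjusted p below 0.05 in either direction there were 6 against ESC, 10 against EpiSC and 8 against FGF-ESC. Dpm1 was higher in ICM by 1.14 ± 0.13 over ESC (adjusted p = 0.000335); against FGF-ESC (1.07 ± 0.13) it fell short of the minimum without FGF-ESC replicate 1 or after quantile normalization. The list medians in ICM were -0.02 over ESC, 0.05 over EpiSC and 0.18 over FGF-ESC. Among cultured groups 1 passed, Pigl, higher in ESC than in EpiSC by 1.12 ± 0.17 (lost without EpiSC replicate 1). Of all tested genes 6.21 to 7.36% passed per comparison of cultured groups.

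Of other proteins with a GPI anchor 16 were tested: 4 were lower and 2 higher in ICM than in ESC (5.82% and 5.57% of all tested genes were), 8 and 1 than in EpiSC (8.48% and 6.80%), and 7 and 2 than in FGF-ESC (9.57% and 5.22%). Medians were -0.49, -0.98 and -0.82. Gpc3, a heparan sulfate proteoglycan, read 3.54 and 3.84 in ICM and 5.66 to 6.84 elsewhere, lower than in ESC by -2.58 ± 0.20 (adjusted p = 4.98e-05). Bst2, an antiviral tether, read 7.16 and 6.31 in ICM and 8.47 to 10.76 elsewhere. Folr1, a folate receptor, read 7.95 and 7.80 in ICM, higher than in EpiSC by 2.16 ± 0.16. Cd59a, an inhibitor of complement, read 7.39 and 7.55 in ICM and was higher than in ESC by 1.88 ± 0.23 (limma adjusted p = 0.00056). Its highest group was EpiSC, however, with an ESC minus EpiSC difference of -2.39 ± 0.23 (adjusted p = 0.000283).

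Beside Alppl2 and Enpep, some markers of other cells of the blastocyst were higher in ICM. Of 18 tested trophectoderm markers 7 were higher in ICM than in ESC (5.57% of all tested genes were), 10 than in EpiSC (6.80%) and 11 than in FGF-ESC (5.22%), and 1, against FGF-ESC, was lower. Gm2a and Atp1b1 had the highest ICM means, 8.69 and 8.37, but Atp1b1 was higher still in ESC, at 8.95. The defining factor Cdx2 read 5.76 and 5.02 in ICM and 3.72 to 4.33 elsewhere, higher than in ESC by 1.26 ± 0.24 (adjusted p = 0.00457), a call lost without ICM replicate 1. Gata3 read 4.71 and 4.98 in ICM and 4.37 to 4.53 elsewhere, and on its other probe set, 17381533, 5.04 and 5.6 against 3.9 to 4.19. Elf5, at 3.04 and 3.48, was below the median of all values. Of 14 tested primitive endoderm markers 7 were higher and 2 lower in ICM than in ESC (5.57% and 5.82% of all tested genes were), 6 and 2 than in EpiSC (6.80% and 8.48%), and 3 and 1 than in FGF-ESC (5.22% and 9.57%). Sparc was lower in all 3 (against EpiSC, not without EpiSC replicate 2 or ICM replicate 1), Lama1 than in ESC and Foxa2 than in EpiSC. Gata6, its defining early factor, read 8.0 and 8.04 in ICM and 3.44 to 4.51 elsewhere, and the endocytic receptor Cubn read 6.96 and 7.26 against 3.39 to 3.68. The part of these cells in the ICM levels of Alppl2 and Enpep was not tested.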

How the data were processed

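The deposited values are 1 log2 intensity per probe set and array for 41345 probe sets on 8 arrays, made by the authors; the submitters' processing notes name Expression Console 1.3.1. The log2 scale was read from their range, and how probes were summarised is not given in the sources used. NuGEN kits were used for amplification and biotin labelling, per the labels' protocols. Array medians ran from 4.16 to 4.28, and no further normalization was applied. The number of arrays limits the precision.

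Genes were named from probe sets with 1 gene in the platform annotation (23521; 1814 had several and 16010 none). Of these, 23328 were found in RefSeq and 0 symbols changed. The probe set with the highest mean stood for each of 1082 genes with several. Sequences of all 3 members were found in the RefSeq promoter table. Groups were compared in limma 3.58.1 (R 4.3.3) with 1 means model over all arrays (lmFit, contrasts.fit, eBayes; 4 residual degrees of freedom), so SEs pool the spread of all groups. P-values were Benjamini-Hochberg adjusted over 13597 genes. To pass, a gene needed both an adjusted p under 0.05 and 1 or more log2 units of difference. The code was tested on simulated data. Protein sequences were not used here.

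The members and gene lists were chosen with earlier results of these data known. Named are the members, their families and the angiotensin genes, some passing genes of other lists, and the 5 most similar genes per member. Up to 3 protein-coding neighbours on each side are plotted, but the text names only some of them. Marker genes are named only from the trophectoderm and primitive endoderm lists, and only some of each. They include the 2 trophectoderm markers with the highest ICM means. Erap1, Mme and marker genes were described at greater length, and Pdxk, Cdx2, Gata3, Elf5, Cubn, Sparc, Lama1 and Foxa2 named, after their values were seen. Alternatives were 2 rescalings, no filter, averaged probe sets, a fit of each pair of groups alone, a trended robust fit, a replicate block, and leaving out each array; the count of surface peptidases without Mme was added after the data were seen.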

Additional observations from a re-analysis of the deposited data

How the results depend on the processing

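Where 1 of 2 arrays was left out, the remaining array was assumed to vary like those of other groups. No difference of Alpl, and none of Alppl2 and Enpep from ICM, changed sign under any alternative. Alpl passed between ESC and EpiSC under all 15 alternatives. For Alpl between FGF-ESC and ESC, the difference was -0.94 both with arrays centred on their medians (adjusted p = 0.0275) and with its probe sets averaged (0.0137), under the minimum of 1, and -1.01 (adjusted p = 0.07) in a fit of these groups alone; it ran from -1.34 to -0.68 as each array was left out. For Alpl between FGF-ESC and EpiSC it ran from 0.43 (without FGF-ESC replicate 2) to 1.09 (without FGF-ESC replicate 1). Differences from ICM moved by more than the spread of arrays only after rescaling: Alppl2 over FGF-ESC was 4.94 and Enpep 5.12 after quantile normalization, Enpep over FGF-ESC was 5.18 after centring, and Enpep over EpiSC was 5.10 after quantile normalization. Between FGF-ESC and ESC 844 genes passed, against 526 in a fit of these groups alone and 374 to 1287 as arrays were left out; in the other 5 comparisons it stayed within 1.5 times. Labels give all groups the same replicate numbers, but these did not pair the arrays: the correlations of replicate 1 minus replicate 2 between groups ran from -0.09 to 0.04 over 13597 genes. With the replicate number as a block, 828 genes passed between FGF-ESC and ESC and Alpl had an adjusted p of 0.0245 there, 0.0485 between FGF-ESC and EpiSC, and 0.00175 between ESC and EpiSC, and the block changed no call of Alpl. Levels near the array floor, as those of Alppl2 and Enpep in culture, limit what folds can show.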

Other observations

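Alppl2 and Enpep stood in the data beside other genes with at least 4 log2 units between the lower ICM array and the highest cultured array. Some of these are named here, after their values were seen and with no test. Besides this pair, 18 genes met that gap, whose width depends on the floor of each probe set where cultured values lie near background. LOC100039010 had the widest gap, 6.43. Fbp2, an enzyme of gluconeogenesis, had a gap of 5.33, and Tat, which degrades tyrosine, had 4.49. Slc1a1, a transporter of glutamate and aspartate, had 4.85. Pramel5, Pramel6 and Pramel7 of the PRAME family had 5.71, 4.71 and 4.64; copies of this family are alike, so the copy read is uncertain. Khdc1a, Khdc3 and Khdc1c, with KH domains, had 5.07, 4.50 and 4.22. Spic, a transcription factor of the ETS group, had 4.03.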
